A study of Arabidopsis thaliana with 12 samples.

Results

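Roots of Arabidopsis thaliana seedlings carrying mutations in both ARR10 and ARR12 were compared after trans-zeatin and after DMSO, to describe which transcripts still responded to a cytokinin without these regulators. The comparison rested on 6 of the 12 arrays of the experiment, chosen by genotype and treatment as labelled: 3 arrays of arr10 arr12 roots given trans-zeatin and 3 arrays of arr10 arr12 roots given DMSO. The other 6 arrays held wild-type Col-0 roots, 3 given trans-zeatin and 3 given DMSO, and were used to set the mutant response beside that of the wild type. All seedlings were grown upright on Murashige and Skoog agar for 2 weeks. The mutant came from the insertion lines SALK_098604 and SALK_054752, 1 line for each gene, so that all results concern a single double mutant. Dose and length of treatment were not given in the labels, and nothing there says that the 3 replicates of a group came from separate plants, so that p-values measure only the spread between these arrays. The treatment field of the labels reads trans-zeatin for both genotypes, while sample titles say TZ in the mutant but CK in wild-type samples; the field was followed. The labels name roots as the tissue, while their extraction text speaks of seedlings.

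Trans-zeatin is a cytokinin, a plant hormone, and DMSO is the solvent commonly used to carry it. Cytokinins bind histidine kinase receptors at cell membranes, and the signal passes through phosphotransfer proteins to response regulators in the nucleus. The type-B regulators, ARR10 and ARR12 among them, are transcription factors that switch on cytokinin targets together with relatives such as ARR1. The type-A regulators are themselves quick targets and dampen the relay. In roots, cytokinin restrains the meristem and the formation of lateral roots, both of which auxin promotes.

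Each ATH1 probe set gave 1 signal per array on the scale of the MAS5 algorithm, and 13647 of 22746 probe sets other than controls had a mean signal above 23.5 and were tested. Fold changes are differences of log2(signal + 6.65), trans-zeatin minus DMSO, which understate changes of dim probe sets. Each comes with a standard error and with limma's p, adjusted by Benjamini and Hochberg's method across the tested probe sets. A probe set was called when the adjusted p was under 0.05. Only 7289 tested probe sets could be tied to 1 locus with the annotation used here, and the rest are given by their probe set identifiers.

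The arrays were alike in overall signal, with medians of 39.3 to 41.6. Among arr10 arr12 arrays, log2 values correlated at 0.976 to 0.984 between trans-zeatin arrays, at 0.987 to 0.989 between DMSO arrays and at 0.978 to 0.987 across the treatments, so that the trans-zeatin arrays were no more like each other than like the DMSO arrays. The replicate 3 array of arr10 arr12 with trans-zeatin had the lowest array weight, 0.431. ARR10 and ARR12 have no probe set with an entry in the annotation, so the genotype labels were not checked on the mutated genes. Of the root markers listed, 4 of 14 had an entry. Their summed signal was 3450 to 4437 on the arr10 arr12 trans-zeatin arrays and 3388 to 3862 on the arr10 arr12 DMSO arrays, most of it from PYK10, a beta-glucosidase abundant in roots. Of the leaf markers, 2 of 12 had an entry, LHCB4.1 and RCA, and neither was near 0. Their sum was 345 to 362 with trans-zeatin and 331 to 349 with DMSO in arr10 arr12, against 462 to 484 with trans-zeatin and 440.0 to 557.5 with DMSO in the wild type.

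In arr10 arr12 roots, 169 of 13647 probe sets were called (1.24%), 88 higher (0.645%) and 81 lower (0.594%) with trans-zeatin. The median called rise was 0.70 and the median called fall -0.62 on the log2 scale, where the median of all tested probe sets was -0.01. Only 22 of the calls reached 2-fold, 16 of them rises and 6 falls. In all 169 the 3 trans-zeatin arrays did not overlap the 3 DMSO arrays, as was so for 1891 of the tested probe sets (13.9%). For a called gene such a gap is thus no further support. The named rises included the cytokinin feedback gene ARR15, the glutaredoxin ROXY2, 2 acyltransferases of triterpene synthesis and the membrane transporters AZG1, AT3G45700 and AT1G11670. The named falls included the organ growth gene ARL, the auxin conjugation gene GH3.3 and the lateral root factor LBD16. These are bulk root samples, in which fewer cells of a type and less RNA per cell cannot be told apart. Of the calls, 67 could be named by 1 gene (32 rises and 35 falls), 2 were shared by several genes and 100 had no entry.

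**Figure D1:**
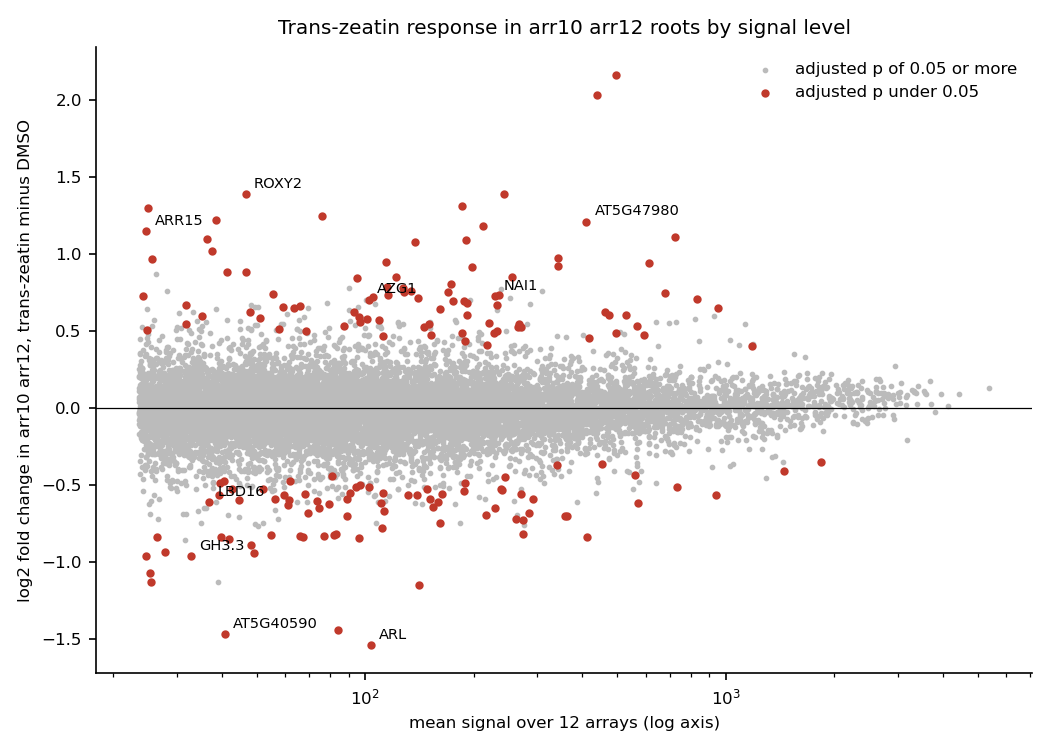
Log2 fold change, trans-zeatin minus DMSO, in arr10 arr12 roots (vertical axis) against the mean signal over 12 arrays (horizontal log axis) for the 13647 tested probe sets. Red points are the 169 called probe sets. They are spread over the range of signals, with a median mean signal of 122 against 97.7 for all tested.

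The clearest named member of the cytokinin relay was ARR15, a type-A regulator. ARR15 (AT1G74890) had signals of 23.99, 25.1 and 18.6 on the arr10 arr12 trans-zeatin arrays, against 5.97, 8.75 and 4.96 on the arr10 arr12 DMSO arrays. It rose by 1.15 ± 0.17 (SE, adjusted p = 0.0034, limma). The 3 DMSO signals lay near the 6.65 offset, so that the size of the rise depends on it. ARR15 passed the signal filter only through its wild-type trans-zeatin arrays, which averaged 59.2. Its mean was 22.6 with trans-zeatin and 6.56 with DMSO in arr10 arr12, and 10.5 with DMSO in the wild type. Without any filter ARR15 was still called in arr10 arr12 (adjusted p = 0.014, limma). ARR16, the other type-A regulator with an entry, was too dim to be tested. Its signals were 4.56, 9.43 and 9.06 with trans-zeatin and 2.96, 0.12 and 3.297 with DMSO in the mutant, and its change of 0.71 did not pass (adjusted p = 0.25) in a fit without a signal filter, which called 0.448% of 22746 probe sets. In wild-type roots the same fit without a filter called 4.01% of probe sets and gave ARR16 a change of 2.34 (adjusted p = 7.5e-05). The difference between the genotypes was -1.63 for ARR16 (95% interval -2.30 to -0.97, adjusted p = 0.21). Of 11 type-B regulators listed, ARR18 and ARR19 had an entry and both were below the filter, with changes of 0.02 and 0.06. No receptor or phosphotransfer protein had an entry. Of the cytokinin metabolism genes listed, 2 of 16 had an entry and neither passed. UGT76C2, which attaches glucose to cytokinins, changed by 0.47 (adjusted p = 0.22), and its neighbour UGT76C1, with the same activity, by -0.05 (adjusted p = 0.95). AZG1, a transporter of purines and cytokinins, rose by 0.70 ± 0.12 (adjusted p = 0.0077), with signals of 116, 126 and 96.5 with trans-zeatin and 78.4, 60.7 and 61.4 with DMSO.

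The largest rise among named genes was that of ROXY2 (AT5G14070), a glutaredoxin of the land-plant CC type, whose members work with TGA transcription factors. ROXY2 had signals of 39.2, 56.2 and 52.6 on the trans-zeatin arrays of arr10 arr12, against 7.72, 19.8 and 18.4 on its DMSO arrays. All 3 treated arrays lay well above the highest control array. The rise was 1.39 ± 0.23 on the log2 scale (adjusted p = 0.0055). It was the only CC-type glutaredoxin called among 6 tested, whose median change was 0.23. The share called among all tested probe sets tied to 1 locus was 0.919%. AT4G15680, of the glutaredoxin cluster on chromosome 4, averaged 34.5 ± 9.78 with trans-zeatin and 19.8 ± 4.86 with DMSO in the mutant (SD, n = 3 each), a change of 0.63 that did not pass (adjusted p = 0.34). Its wild-type change was 1.97 (adjusted p = 0.00012), and the difference of -1.34 between the genotypes did not pass either (adjusted p = 0.23). AT2G30540, a further member, was under the filter. Its signals were 7.68, 8.17 and 10.3 with trans-zeatin and 0.84, 0.97 and 1.25 with DMSO, most of them below the offset, and the fit without a filter called it (adjusted p = 0.0072). Of the 9 members below the filter it was the one called there.

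Both measured acyltransferase genes at the thalianol cluster rose. Thalianol is a root triterpene made by neighbouring genes on chromosome 5, and 2 acyltransferase genes of the BAHD family lie in that stretch. AT5G47980 had signals of 259, 488 and 498 with trans-zeatin against 157, 166 and 184 with DMSO in arr10 arr12. The treated arrays differed among themselves, replicate 1 being the lowest, yet all lay above the control arrays. The rise was 1.21 ± 0.20 (adjusted p = 0.0072), close to the wild-type rise of 1.26. AT5G47950 had signals of 143, 163 and 136 with trans-zeatin and 89.9, 83.5 and 88.4 with DMSO, and rose by 0.71 ± 0.10 (adjusted p = 0.002). They were the 2 listed genes of 5 with an entry, and the list was drawn up with these rises known. Their count is therefore no result about the cluster. Rises made up 0.439% of all tested probe sets tied to 1 locus.

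AT3G45700 and AT1G11670, which encode membrane transporters, also rose. AT3G45700, the nitrate transporter family member NPF2.4, had signals of 115, 104 and 113 with trans-zeatin and 71.97, 63.8 and 42.7 with DMSO in the mutant. It rose by 0.85 ± 0.14 (adjusted p = 0.0072). Its tested neighbours on chromosome 3, AT3G45680 and AT3G45710, changed by 0.35 (adjusted p = 0.14) and 0.37 (adjusted p = 0.31), short of the threshold. All 3 were called in wild-type roots, where AT3G45680 changed by 1.20. The mutant response minus the wild-type response was -0.85 for AT3G45680 (95% interval -1.16 to -0.54), which did not pass (adjusted p = 0.062, limma). AT1G11670, a carrier of the MATE family, had signals of 883, 702 and 711 with trans-zeatin and 486, 501 and 377 with DMSO. It rose by 0.75 ± 0.12 (adjusted p = 0.0055), and is one of the brighter members of the response.

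Other named rises had varied functions. AT1G64590, a short-chain dehydrogenase, had signals of 689, 678 and 888 with trans-zeatin and 400.4, 409 and 349 with DMSO, the groups standing far apart. It rose by 0.94 ± 0.12 (adjusted p = 0.0013), and its wild-type rise was 0.97. AT1G49450, a WD40 repeat protein, had 156, 93.9 and 107 with trans-zeatin and 62.8, 43.7 and 33.02 with DMSO and rose by 1.25 ± 0.21 (adjusted p = 0.0057). AT2G34610 had 49.7, 58.9 and 49.03 with trans-zeatin against 24.2, 16.3 and 16.5 with DMSO, a rise of 1.22 ± 0.23 (adjusted p = 0.016). The bHLH transcription factor AT4G25410 was dim but tight, with 33.6, 39.4 and 34.9 on treated and 15.7, 15.8 and 17.8 on control arrays. Its rise was 0.88 ± 0.15 (adjusted p = 0.0077). AT4G02850, of the PhzF family, had 160.2, 166 and 149.8 with trans-zeatin and 100.4, 87.7 and 81.5 with DMSO, and AT4G03610 had 129.6, 132 and 132 with trans-zeatin and 81.2, 70.9 and 73.9 with DMSO. Within each group these arrays were close, and the rises were 0.78 ± 0.11 and 0.75 ± 0.11 (adjusted p = 0.0032 each). AT4G20320, a CTP synthase of pyrimidine metabolism, had 304, 251 and 209.7 with trans-zeatin and 164, 148 and 149 with DMSO and rose by 0.69 ± 0.12 (adjusted p = 0.0093). UBC16, a ubiquitin-conjugating enzyme, was higher by a smaller step with little scatter, at 298, 304 and 315 with trans-zeatin and 204, 213 and 206 with DMSO (log2 change 0.54, adjusted p = 0.014). AT2G28510, the Dof factor DOF2.1, rose by 0.60 ± 0.13 (adjusted p = 0.028).

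Of 5 tested ER body genes, NAI1 alone was called, where 0.919% of all tested probe sets tied to 1 locus were called. NAI1, a bHLH factor for the ER bodies that store beta-glucosidases in Brassicaceae, had signals of 259.5, 320.4 and 233 with trans-zeatin and 176, 158 and 147 with DMSO in arr10 arr12. It rose by 0.73 ± 0.13 (adjusted p = 0.0099). None of the other 4 tested ER body genes passed: NAI2 changed by 0.20 (adjusted p = 0.62), PYK10 by 0.09 (adjusted p = 0.87), JAL33 by 0.07 (adjusted p = 0.93) and JAL22 by -0.05 (adjusted p = 0.95). PYK10 averaged 3627 ± 522 with trans-zeatin and 3388 ± 229 with DMSO (SD, n = 3 each), among the highest signals of the named genes. The same held in wild-type roots, where of the 5 only NAI1 was called, with a change of 0.95. There 8.64% of all tested probe sets were called.

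Among the falls, the largest named one was ARL, the ARGOS-LIKE gene, known to promote cell expansion. ARL (AT2G44080) had signals of 42.8, 26.7 and 33.8 on the arr10 arr12 trans-zeatin arrays against 79.5, 104 and 166 on the DMSO arrays. The control arrays were spread more than 2-fold, replicate 3 the highest, but even the lowest exceeded every treated array. The fall was -1.54 ± 0.23 on the log2 scale (adjusted p = 0.0032). In wild-type roots it averaged 94.3 ± 22.5 with trans-zeatin and 169 ± 39.6 with DMSO (SD, n = 3 each), a fall of -0.80 (adjusted p = 0.04). The larger fall in the mutant amounted to a difference of -0.74 (95% interval -1.43 to -0.06), which did not pass (adjusted p = 0.42, limma).

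Among GH3 and lateral root genes, GH3.3, AT1G48690 and LBD16 fell and GH3.17 rose. GH3 enzymes join auxin or other acids to amino acids. GH3.3 had signals of 27.4, 21.5 and 24.5 with trans-zeatin and 48.6, 48.6 and 65.4 with DMSO, and fell by 0.96 ± 0.16 (adjusted p = 0.0055). AT1G48690, listed with the same family, had 14.1, 18 and 17.2 with trans-zeatin and 32.7, 47.1 and 36.01 with DMSO and the same fold change of -0.96 ± 0.15 (adjusted p = 0.0046). AT1G48690 passed the signal filter only through its arr10 arr12 DMSO arrays, which averaged 38.6. It was also called in the fit without a filter. GH3.17, which joins auxin to glutamate, rose to 602, 578 and 606 with trans-zeatin, against 468, 450.1 and 358 with DMSO (log2 change 0.49, adjusted p = 0.03). WES1, also called GH3.5, changed by -0.32 without passing (adjusted p = 0.36). Of the GH3 list, 4 of 12 with an entry were tested, with 1 rise and 2 falls. The list had been enlarged once those calls were known. Among all tested probe sets tied to 1 locus, 0.439% rose and 0.48% fell. LBD16, an auxin-induced factor of lateral root initiation, had 29.6, 30.6 and 28.2 with trans-zeatin and 42.2, 48.9 and 55.3 with DMSO, and fell by 0.61 ± 0.11 (adjusted p = 0.01). LBD29, of the same role, was under the filter, with 5.58, 6.35 and 8.39 with trans-zeatin and 19.9, 13.1 and 19.99 with DMSO. In the fit without a filter it fell by 0.85 ± 0.16 (adjusted p = 0.039). PUCHI, an AP2/ERF factor acting in the same primordia, was also under the filter and changed by -0.06 (adjusted p = 0.95).

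Of the named falls, 4 encode cysteine- and histidine-rich C1 domain proteins, which are largely uncharacterised. They were put together after their values were seen, and how many such genes were tested was not counted. Their number therefore says nothing about the family, while 0.48% of all tested probe sets tied to 1 locus fell. AT5G40590 had signals of 24.7, 20.2 and 10.9 with trans-zeatin against 62.9, 51.8 and 70.7 with DMSO, a fall of -1.47 ± 0.17 (adjusted p = 0.0009). AT5G54040 had 53.7, 59.1 and 41.7 with trans-zeatin and 98.2, 99.2 and 90.5 with DMSO, and AT3G13760 had 89.99, 91.5 and 104 with trans-zeatin and 159, 172 and 136 with DMSO. In both genes every treated array was under every control array. AT5G54040, AT3G13760 and AT5G59930 fell, with changes of -0.83 ± 0.15, -0.67 ± 0.10 and -0.49 ± 0.11 (adjusted p = 0.011, 0.0035 and 0.036). The adjusted p of AT5G40590 was the smallest among the named falls.

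Glutathione transferases and UDP-glycosyltransferases included both rises and falls. Of all tested probe sets tied to 1 locus, 0.439% rose and 0.48% fell. Glutathione transferases attach glutathione to reactive compounds, and 13 were tested, with a median change of -0.08. GSTU27 had signals of 189.7, 188 and 212 with trans-zeatin and 281, 364 and 349 with DMSO and fell by 0.73 ± 0.13 (adjusted p = 0.01). GSTU23 fell by 0.47 (adjusted p = 0.022), while GSTU26 rose by 0.61 ± 0.14, just inside the threshold (adjusted p = 0.0499). Of 28 UDP-glycosyltransferases tested, 1 rose and 1 fell, with a median of 0.05. UGT76B1, which glucosylates isoleucic and salicylic acids, had 249, 198 and 186 with trans-zeatin and 335, 415 and 378 with DMSO and fell by 0.82 ± 0.12 (adjusted p = 0.0032). UGT85A2 rose by 0.53 ± 0.11 (adjusted p = 0.024). AT2G22930, a glycosyltransferase outside the list, rose by 0.66 (adjusted p = 0.047).

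Other named falls had varied functions. AT2G44500, an O-fucosyltransferase, fell by 0.65 ± 0.08 with closely grouped arrays, 118, 113 and 117 with trans-zeatin and 173, 191 and 192 with DMSO (adjusted p = 0.0013). AT5G03230 had 54.6, 53.5 and 45.5 with trans-zeatin and 88, 88.9 and 109.8 with DMSO and fell by 0.82 ± 0.14 (adjusted p = 0.0072). AT5G51440, a small heat shock protein, had 19.7, 24.4 and 30.3 with trans-zeatin and 44.4, 49.9 and 68.3 with DMSO and fell by 0.95 ± 0.16 (adjusted p = 0.0077). AT3G60420 had 9.23, 11.6 and 13.6 with trans-zeatin and 26.2, 20.6 and 62.1 with DMSO, 1 control array far above the others, and fell by 1.13 ± 0.25 (adjusted p = 0.032). AT3G60420 passed the signal filter only through its DMSO arrays, and it lost its call without a filter. Of the AP2/ERF list 2 members were tested: LEP fell by 0.44 ± 0.10 (adjusted p = 0.039), and ORA47 changed by 0.20 (adjusted p = 0.9). The share that fell among all tested probe sets tied to 1 locus was 0.48%. AT5G07580, an AP2/ERF factor outside the list, and the MYB-like factor MYBC1 also fell, with changes of -0.59 ± 0.12 and -0.51 ± 0.11 (adjusted p = 0.026 and 0.038). AT1G04770, SDI2, known as a sulphur deficiency gene, fell by 0.56 ± 0.12 (adjusted p = 0.03). AT5G03380, a heavy-metal-associated protein, was bright, at 399, 551 and 409.8 with trans-zeatin and 636, 709 and 730.5 with DMSO, and fell by 0.62 ± 0.12 (adjusted p = 0.014). AT2G16660, a transporter of the major facilitator superfamily, had 146, 166 and 162 with trans-zeatin and 228, 231 and 333 with DMSO, and fell by 0.70 ± 0.13 (adjusted p = 0.0099).

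Further named calls varied in size and in how steadily they were called. Rises of AT1G49500, AT1G28100, AT4G36640, AT1G31940, AT3G44940, AT5G19290, AT5G62130, AT4G18630, AT1G52200 and AT1G64890 lay between 0.46 and 0.65. Among them AT4G36640 is a Sec14-like lipid transfer protein, AT5G19290 an alpha/beta hydrolase and AT1G52200 a PLAC8 family protein. AT1G31940 had the smallest adjusted p of these, with 179.8, 177 and 165 with trans-zeatin and 126, 113 and 114 with DMSO in arr10 arr12 (log2 change 0.54, adjusted p = 0.0043). Falls of AT3G23190, AT1G11540, AT1G05700, AT3G25930, AT4G33960, AT4G28890, AT2G18690, AT2G48090, AT3G29410, AT3G46270, AT1G29020 and AT1G19900 lay between -0.94 and -0.45. AT1G19900, a galactose oxidase-like protein, had 17.3, 15.96 and 12.9 with trans-zeatin and 36.3, 38.3 and 31.9 with DMSO (adjusted p = 0.039). AT1G29020, a calcium-binding EF-hand protein, had 82.2, 66.6 and 51.2 with trans-zeatin and 120.1, 106 and 142 with DMSO (adjusted p = 0.0099). AT3G46270, related to receptor kinases, had 109.8, 98.1 and 63.5 with trans-zeatin and 168, 142 and 160.2 with DMSO, a change of -0.78 (adjusted p = 0.033). The treated arrays of these 3 genes were scattered but lay under the control arrays. AT3G29410 is a terpene synthase, AT1G05700 a leucine-rich repeat receptor kinase and AT4G28890 a RING-type ubiquitin ligase, with changes of -0.65, -0.53 and -0.59.

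LHCB4.2, an antenna protein of photosystem II, was the single fall among 28 tested photosynthesis genes, whose median was -0.13. Of all tested probe sets tied to 1 locus, 0.48% fell. LHCB4.2 had signals of 43.3, 35 and 47.2 with trans-zeatin and 56.4, 62.2 and 84.5 with DMSO in arr10 arr12. It fell by 0.61 ± 0.14 (adjusted p = 0.039). Of the leaf markers on the same arrays, LHCB4.1 averaged 207 ± 7.995 with trans-zeatin and 199.7 ± 5.06 with DMSO, and RCA averaged 146 ± 6.42 with trans-zeatin and 142 ± 7.66 with DMSO (SD, n = 3 each).

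**Figure D2:**
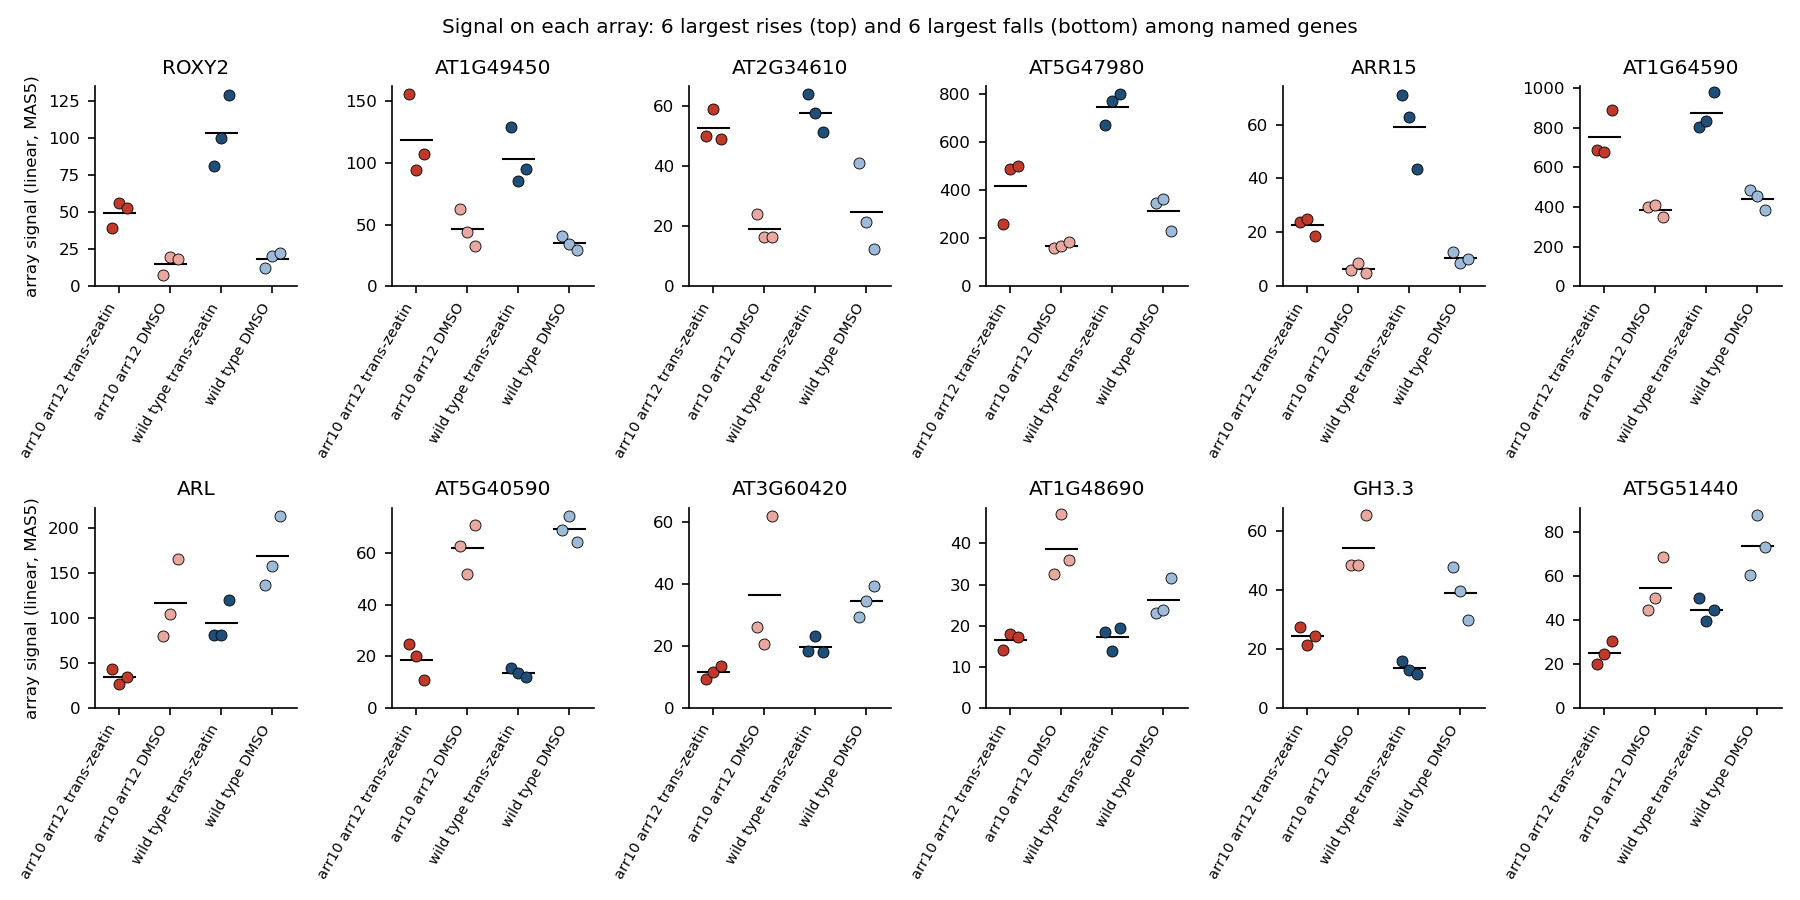
Array signal (linear MAS5 scale, vertical axes from 0) of the 6 largest rises (top) and the 6 largest falls (bottom) among the named genes, 1 point per array and a bar at each group mean, for arr10 arr12 with trans-zeatin, arr10 arr12 with DMSO, wild type with trans-zeatin and wild type with DMSO. In each panel the 3 arr10 arr12 trans-zeatin arrays do not overlap the 3 arr10 arr12 DMSO arrays, the genes having been chosen so.

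Many function lists gave no call in arr10 arr12. Over all lists, 177 of 291 probe sets with an entry were tested, 10 rose and 11 fell, and the median change was -0.03. Of all tested probe sets 1.24% were called, and of those tied to 1 locus, as all list members are, 0.919%. Several lists had been shaped with the calls known, and the share is a description. In 12 lists with at least 2 tested members no member was called by limma after adjustment, and their medians ran from -0.19 to 0.21. Without adjustment the 95% interval left out 0 in 17 of the 74 members tested, EXPA7 and EXPA18 counting on both of their lists, and in 1433 of all 13647 probe sets tested (10.5%). None of 13 expansins passed, although 4 had an unadjusted interval without 0, the largest changes being 0.65 for EXPB1 (adjusted p = 0.07) and -0.54 for EXLB1 (adjusted p = 0.18). Neither root hair expansin passed, with EXPA7 at -0.19 (adjusted p = 0.75) and EXPA18 at 0.02 (adjusted p = 0.98). Both were called lower in wild-type roots, with changes of -0.67 and -0.43. For EXPA7 the difference between the genotypes was 0.48 (95% interval 0.06 to 0.90, adjusted p = 0.41). DFR, which acts in anthocyanin synthesis, changed by -0.52 (adjusted p = 0.25). None of 7 histone genes, 5 cell cycle genes, 6 WRKY factors, 7 xyloglucan endotransglucosylases or 11 cytochromes P450 passed.

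**Figure D3:**
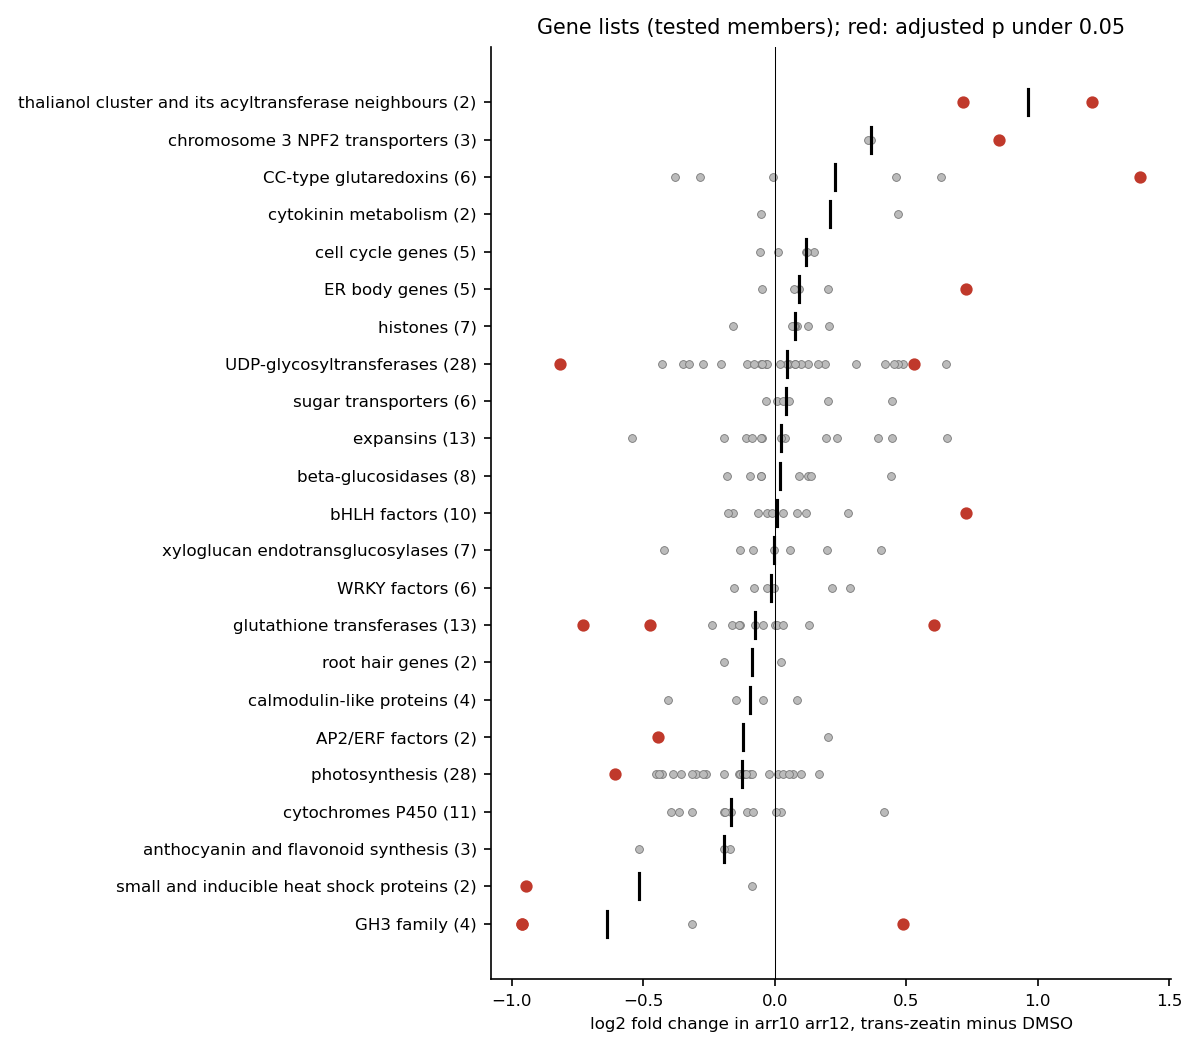
Log2 fold change, trans-zeatin minus DMSO, in arr10 arr12 roots for the tested members of each function list with 2 or more tested members (number in brackets). Grey points did not pass, red points had an adjusted p under 0.05, bars are list medians; the 2 falls of the GH3 family overlie each other at -0.96.

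The 2 largest rises, of 259466_at and 252374_at, came from probe sets with no named gene, and ROXY2 was next. Probe set 259466_at had signals of 993, 767 and 733 with trans-zeatin and 247, 155 and 149 with DMSO in arr10 arr12, and rose by 2.16 ± 0.19 (adjusted p = 5.4e-05). Among unnamed probe sets 252374_at, 262704_at, 253696_at and 266321_at followed, with rises of 2.03, 1.39, 1.31 and 1.3. The largest unnamed falls were -1.44 for 252340_at, -1.15 for 246935_at and -1.07 for 248208_at, followed by -0.89 for 258570_at and -0.85 for 247205_at. The signal filter was passed by 266321_at only through its trans-zeatin arrays, and by 248208_at only through its DMSO arrays. Without a filter 248208_at lost its call and 266321_at kept it. Probe set 252340_at had 41.3, 50.7 and 33.01 with trans-zeatin and 103, 118 and 152 with DMSO (adjusted p = 0.00033). At the threshold, 254644_at and 253872_at lay just inside beside GSTU26, and AT5G54660 (-0.50, adjusted p = 0.0512), 251436_at (-0.86, adjusted p = 0.0518) and AT3G07090 (-0.40, adjusted p = 0.0522) lay just outside.

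Many calls were lost when 1 array was left out. Of the 67 named calls, 20 held in every one of the alternative settings in which they were tested, 12 of them rises: ROXY2, AT1G49450, AT5G47980, ARR15, AT1G64590, AT4G25410, AT3G45700, AT4G02850, AT4G03610, AT1G11670, AT5G47950 and AT1G31940. The 8 falls were ARL, AT5G40590, AT1G48690, GH3.3, AT5G03230, UGT76B1, AT3G13760 and AT2G44500. The other 47 lost their call in at least 1 setting, none with a change of sign. Leaving out replicate 2 or replicate 3 of arr10 arr12 with DMSO cut the count of 169 to 67 or 69, and each removed 42 of the 67 named calls. Without replicate 2 of arr10 arr12 with trans-zeatin 97 probe sets were called and 33 named calls were lost. Without its replicate 1 or 3 the counts were 187 and 143, and without replicate 1 of arr10 arr12 with DMSO 137. Each of these fits left 2 arrays in a group, so lost precision and reliance on 1 array were not told apart. A fit of the 6 arr10 arr12 arrays alone called 79 probe sets, and a fit without a signal filter called 102. NAI1, GSTU27 and LBD16 had adjusted p up to 0.066, 0.073 and 0.075 over the settings, LHCB4.2 up to 0.2, GH3.17 up to 0.16 and GSTU26 up to 0.21.

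Beside the mutant's 169 calls, wild-type roots had 1179 (8.64%). Each fold change came from the 6 arrays of its own genotype, but both counts rest on a spread estimated over all 12 arrays, and leaving out replicate 2 of the wild type with trans-zeatin or with DMSO gave 128 or 131 calls in arr10 arr12. Of the 169, 145 (85.8%) were called in the same direction in wild-type roots, where they made up 12.3% of the calls. These were 75 rises and 70 falls, where 3.78% of all tested probe sets rose and 4.86% fell in the wild type. All but 2 of the 169 had the same sign in both genotypes, but the share with the same sign among all tested probe sets was not counted. A smaller number of calls is no measure of a smaller response, so the responses were also compared directly. The test of the difference, arr10 arr12 response minus wild-type response, called 6 probe sets (0.044%).

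Probe sets chosen by the mean of both responses, which favours neither genotype, gave the sizes. By that mean 1169 probe sets were called (8.57%), 483 higher (3.54%) and 686 lower (5.03%) with trans-zeatin. The 483 had a median change of 0.35 in arr10 arr12 and 0.52 in the wild type, and 374 of them (77.4%) moved less in the mutant. The 686 had a median of -0.32 in arr10 arr12 and -0.52 in the wild type, and 573 (83.5%) moved less in the mutant. In 176 of the rises and 208 of the falls the mutant change was at least 80% of the wild-type change. Neither share was counted among all tested probe sets. Across the alternative settings the share that moved less ran over 71.6 to 82.9% of the rises and 74.9 to 87.2% of the falls.

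**Figure D4:**
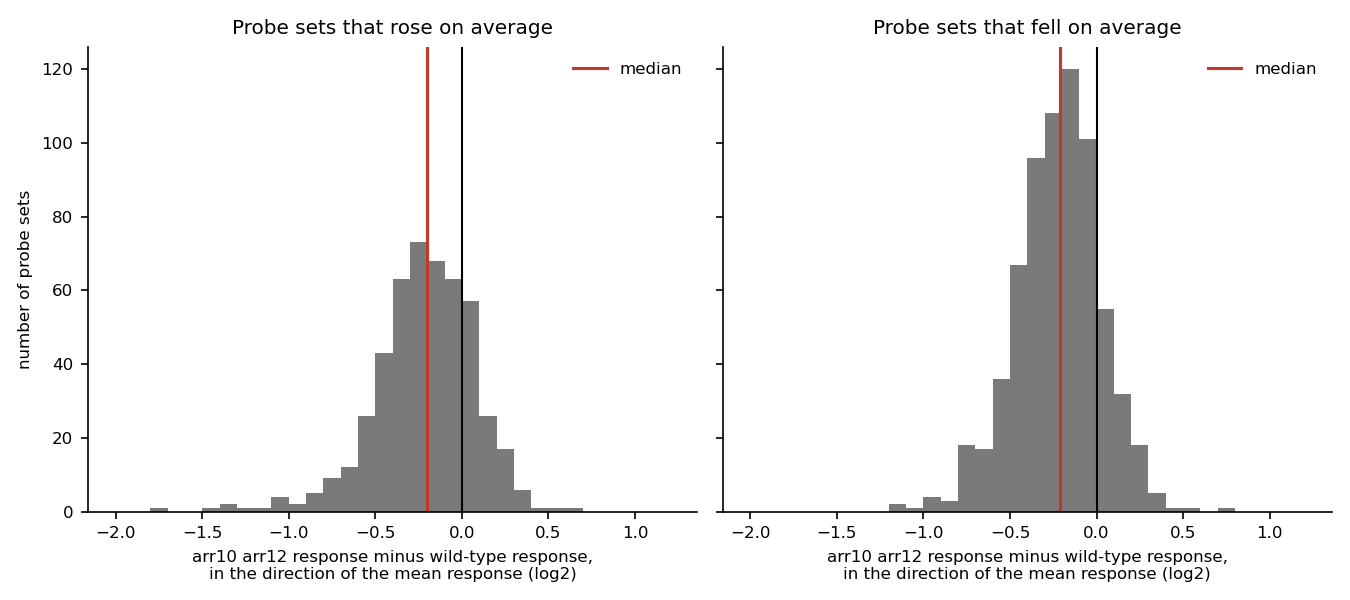
Number of probe sets (vertical axis) by the arr10 arr12 response minus the wild-type response, signed so that values below 0 mean a smaller response in arr10 arr12 (horizontal axis, log2), for the 483 probe sets that rose on average (left) and the 686 that fell on average (right). Red lines are medians; 374 of 483 and 573 of 686 lie on the smaller side.

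Among named genes of the mutant response, some changed about as much as in wild-type roots. AT1G64590 differed by -0.03 between the genotypes (95% interval -0.39 to 0.33), AT5G47980 by -0.05 (-0.67 to 0.56), AT2G44500 by 0.05 (-0.20 to 0.29) and AT5G03230 by 0.01 (-0.41 to 0.42). Differences between the genotypes within these intervals were not resolved by 3 arrays a group. Others were further apart: ARR15 rose by 1.15 in the mutant and 1.92 in the wild type, a difference of -0.77 (-1.29 to -0.26). ROXY2 rose by 1.39 in the mutant and 2.15 in the wild type, a difference of -0.76 (-1.44 to -0.08), and AT4G02850 by 0.78 and 1.34, a difference of -0.56 (-0.90 to -0.22). None of these passed adjustment over all probe sets (adjusted p = 0.29, 0.42 and 0.26). Among the falls, MYBC1 changed by -0.51 in the mutant and -1.14 in the wild type, and AT5G07580 by -0.59 and -1.25 (adjusted p of the differences 0.23 and 0.24).

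**Figure D5:**
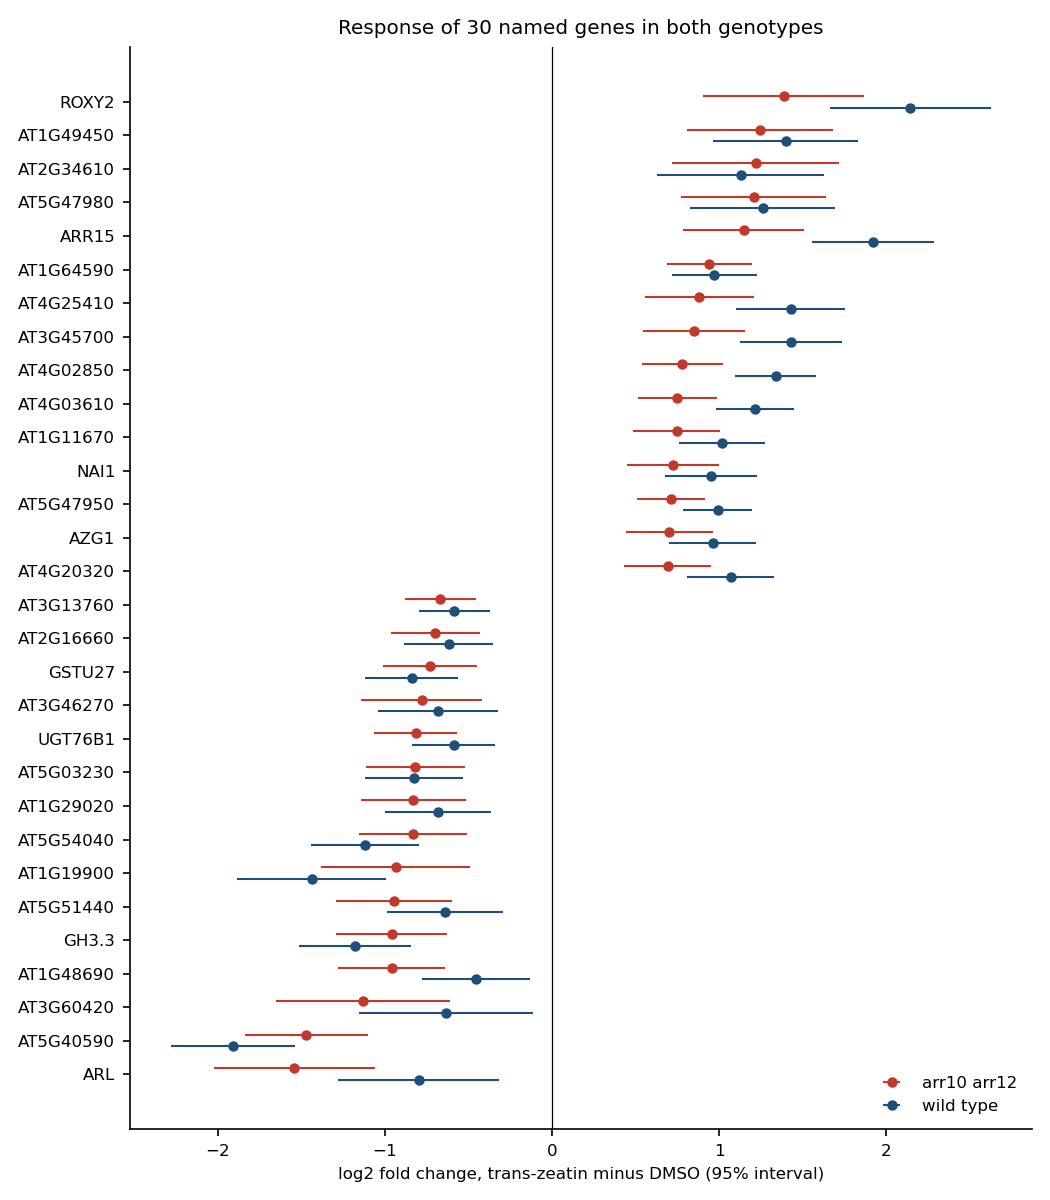
Log2 fold change, trans-zeatin minus DMSO, with its 95% interval (horizontal axis) for the 15 largest rises and the 15 largest falls among named genes, arr10 arr12 above wild type in each row. The arr10 arr12 intervals all leave out 0, having been chosen so, and most overlap the wild-type intervals.

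A total of 24 mutant calls, 13 rises and 11 falls, did not pass in the wild type, and 11 of them were named. None passed the test of the difference, whose smallest adjusted p among the 24 was 0.14 (limma). The unadjusted 95% interval of the difference left out 0 in 10 of them, against 1476 of all tested probe sets (10.8%); the choice of the 24 by passing in the mutant and missing in the wild type favours such intervals, so nothing is read from that count. AT1G71710 had signals of 51.95, 62.6 and 54.1 with trans-zeatin and 39.1, 29.98 and 33.8 with DMSO in arr10 arr12, against 61.9, 48.3 and 44.2 with trans-zeatin and 49.9, 49.95 and 49.2 with DMSO in the wild type. Its changes were 0.62 and 0.03, a difference of 0.59 (95% interval 0.21 to 0.96, adjusted p = 0.28). AT5G26270 changed by -0.51 in the mutant and -0.02 in the wild type (adjusted p of the difference 0.33), and AT1G04770 by -0.56 and -0.17 (adjusted p of the difference 0.43).

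The 6 probe sets whose responses differed were EXPA15, 264470_at, 252858_at, 264790_at, 258739_s_at and 267461_at. EXPA15, an expansin that loosens cell walls, had signals of 785, 790.4 and 896 with trans-zeatin and 710.0, 718 and 666 with DMSO in arr10 arr12, a change of 0.24 (adjusted p = 0.35). In the wild type it had 932, 1072 and 1123 with trans-zeatin and 375, 404 and 448 with DMSO, a change of 1.33 (adjusted p = 8.9e-07). The mutant's DMSO arrays were thus above the wild type's DMSO arrays, and its trans-zeatin arrays below the wild type's trans-zeatin arrays. Of the other 5, 264470_at, 264790_at and 258739_s_at were called in arr10 arr12 as well, with rises of 0.85, 0.67 and 0.73 there. Probe set 258739_s_at passed the signal filter only through its wild-type trans-zeatin arrays.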

How the data were processed

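RNA from 12 root samples was hybridised to Affymetrix ATH1 arrays, 3 arrays for each of 4 groups taken from the labels. The authors deposited 1 intensity for each probe set and array, not log-transformed; the submitters' processing notes name GCOS and MAS5. The deposited intensities were already scaled, with a 2% trimmed mean of 99.3 to 99.4 on each array, and were used as they stood. Detection calls and background signals were not used here, so no bound for dim probe sets could be set.

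From the 22810 probe sets deposited, 64 controls were removed. Values were transformed as log2(signal + 6.65), the 25th percentile of all values. Probe sets entered the test when their mean signal over 12 arrays exceeded its 40th percentile, 23.5. Group means were fitted over all 12 arrays with limma 3.58.1 in R 4.3.3, with a variance trend (eBayes) and Benjamini-Hochberg adjustment at 0.05. Only the arr10 arr12 response was tried on simulated data, after the filter. The planted changes were larger than the median called rise and fall. The contrasts were the response (trans-zeatin minus DMSO) of arr10 arr12, that of the wild type, their difference and their mean, the last of them added after the data were seen. Tables were made with Python 3.11.15 and pandas 2.3.3.

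Names came from the platform annotation, brought up to date through RefSeq's TAIR10.1 gene table: 13513 probe sets had 1 gene, 503 several and 8730 no entry. Named genes were all called probe sets with 1 gene. Values on every array were given for the 15 largest rises and falls among named calls whose trans-zeatin and DMSO arrays did not overlap. Up to 6 members of a list were named by smallest p whatever the result. The members, lists and rules were chosen with earlier results of these data known, and the lists were rewritten after a first fit because the reference holds no gene descriptions. Family lists such as AP2/ERF factors and UDP-glycosyltransferases were matched by gene symbol. Members known only by locus fall outside them, so their counts do not describe whole families. Alternatives were other offsets, filters, normalization, variance models, array weights, a replicate block and each array left out. The number of arrays limits the precision. Sequences and promoter motifs were not analysed here.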

Additional observations from a re-analysis of the deposited data

Results flagged for a closer look

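The response to trans-zeatin differed between arr10 arr12 and wild-type roots for 6 of 13647 probe sets (limma, test of the difference of the 2 responses, arr10 arr12 minus wild type). EXPA15 had a difference of -1.10 (95% interval -1.38 to -0.81, adjusted p = 0.0031), and passed in 23 of 23 alternative settings. Probe set 264470_at averaged 91.3 ± 2.75 with trans-zeatin and 47.9 ± 5.79 with DMSO in arr10 arr12, against 764 ± 59.4 with trans-zeatin and 119 ± 37.8 with DMSO in the wild type (SD, n = 3 each). Its difference was -1.80 (95% interval -2.26 to -1.34, adjusted p = 0.0031).

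Probe set 264790_at averaged 185 ± 22.7 with trans-zeatin and 114 ± 10.7 with DMSO in arr10 arr12, against 499.5 ± 39.6 with trans-zeatin and 127 ± 16.1 with DMSO in the wild type. The difference was -1.26 (adjusted p = 0.0034). For 252858_at the change was 0.18 in arr10 arr12 and 1.57 in the wild type, a difference of -1.39 (adjusted p = 0.0034). These 2 and 264470_at passed in 23 of 23 settings.

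For 258739_s_at, shared by 2 genes, the difference was -1.46 (adjusted p = 0.018). Its arr10 arr12 means, 5.82 ± 0.86 with trans-zeatin and 0.9 ± 0.72 with DMSO, were below the 6.65 offset, so that the size depends on the offset, and it passed in 14 of 21 settings (adjusted p up to 0.27). For 267461_at the change was 0.18 in arr10 arr12 and -0.71 in the wild type, a difference of 0.88 (adjusted p = 0.018). It passed in 14 of 23 settings (adjusted p up to 0.1).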

How the results depend on the processing

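The count of 169 called probe sets in arr10 arr12 became 102 with no filter, 79 when only the 6 arr10 arr12 arrays were fitted and 254 with the replicate number as a block. Of the 169, 160 were kept with that block. As labelled, the arrays share only a number, which does not show whether they were handled together. Deviations of same-numbered arrays from their group means correlated at 0.153, 0.052 and 0.074 in arr10 arr12. The wild-type values were 0.064, -0.074 and 0.129, and not every array correlated best with its own number. With the block, 4 named calls were lost. Leaving out 1 array at a time gave 67 to 197 calls. The count of 6 differing responses became 27 with array weights and was 4 to 10 with 1 array left out. For wild type, 1179 calls became 2203 with array weights and 575 to 1364 with 1 array left out. Calls by the mean of both responses fell to 773 with the mean above the 60th percentile, against 1169. The number of function list members called, 21, became 13 with the mean above the 60th percentile, 13 with only the 6 arr10 arr12 arrays, and 10 to 22 with 1 array left out. Offsets of 2 and 16, quantile normalization, a variance model without trend or a robust one, and a filter on mean log2 values (added after the data were seen) left the arr10 arr12 count within 1.5 times. Over the 67 named genes and the 24 settings, where tested, 1256 values kept their call, 333 kept their direction but missed the threshold, and none was reversed. Probe sets near the 6.65 offset, ARR15 among them, have fold changes that rest on it.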
